A study of Mus musculus with 20 samples.

Results

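The cells described here were E2-treated mouse ovarian surface epithelial (OSE) cells of the responsive cluster, split by whether the library of the cell held a read of Greb1. Of 589 cells, 218 were E2-treated and responsive, and 47 of these had at least 1 Greb1 read while 171 had none. Responsive cells are those of the larger of 2 SC3 clusters (SC3 is a consensus clustering method), as labelled in the deposited metadata, where they carry the value 1. The smaller cluster is called cluster 1 below, after the numbering in the paper and not after that deposited value. The members were chosen by their number of Greb1 reads, so the Greb1 values below are a description. Greb1 was left out of every comparison of single genes between them, but counts of reads and of detected genes per cell include it.

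Cultured OSE cells spent 48 hours in hormone-free medium and then received 100 nM E2 (17β-estradiol, the main ovarian estrogen) or ethanol vehicle, 0.0002% at the end, until collection after 15 days in culture. Both suspensions entered 1 Fluidigm C1 circuit by separate inlets, vehicle cells to columns 1 to 10 and E2 cells to columns 11 to 20, and each column gave 1 cDNA library. The cells of column 13 were not analysed here, which left 9 E2 columns with 17 to 30 responsive cells each, and 203 responsive control cells in 10 columns. The labels do not say whether the columns of a condition come from more than 1 culture, so p-values measure only the spread between columns, which may be technical. Strain and age of the donors of the cultured cells are not given in the sources used here. Column 15 stood apart in both groups, with the fewest genes detected per cell at 20000 reads (2266 in cells with and 2275 in cells without a Greb1 read, against at least 2624 in the other columns), and values without it are given where they bear on a result. The OSE keratins Krt7, Krt8, Krt18 and Krt19 were read in every column of responsive E2 cells without a Greb1 read. Krt19 was also read in every column of the cells with one. Of 14 OSE identity genes listed, 11 could be tested between the 2 groups. With a Greb1 read 4 were higher and 7 lower, and 0 were called by the rule given below.

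E2 acts through estrogen receptors, ligand-bound transcription factors encoded by Esr1 and Esr2, which recruit coregulators to DNA near their target genes. Greb1 (growth regulating estrogen receptor binding 1) is a classic early target of the receptor in breast cells, and its protein is itself a cofactor of the receptor. Sequencing of a single cell samples only part of its messages, so a cell without a Greb1 read can still hold Greb1 RNA. The comparison within the E2 cells asks whether cells with a Greb1 read differed in any other transcript, in depth or in trajectory position from cells without one.

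Greb1 (ENSMUSG00000036523; GRCm38 chr12:16670615-16800886, minus strand) had 899 reads in the responsive E2 cells. A Greb1 read was present in 21.6% of these cells (exact 95% interval 16.3 to 27.6%), at a median of 117809 reads per cell. Among the 203 responsive control cells 1 cell had a Greb1 read, or 0.493% (0.0125 to 2.71%), at a higher median of 143233 reads. In cluster 1, the smaller cluster, 1 of 42 E2 cells had a read (2.38%, 0.0603 to 12.6%, median 87632 reads) and 0 of 126 control cells had one, which allows a share of up to 2.38% by the limit of 3 cells for a count of 0, or 2.89% as the exact upper bound (median 112126 reads). These intervals cover counting error over cells only and treat cells as independent draws, although the share differed between columns, as given below. The reads carry no molecular identifiers. The single reads in the control and cluster 1 cells give the level at which a lone read can occur without E2 or outside the responsive cluster.

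The cells with a read differed widely in how much Greb1 they held. Greb1 reads per positive cell ran from 1 to 108 with a median of 14, and from 6.64 to 795 CPM with a median of 102 CPM (reads of a gene among 1000000 reads). At the threshold of the split, 8 cells had 1 read and 3 had 2 reads, beside the 171 cells with 0. Another 10 cells had 3 to 10 reads and 26 had more than 10. The 5 highest cells held 37.6% of all Greb1 reads, and the highest held 12%. Most positive cells thus stood well above 1 read, and a few cells carried a large part of the transcript.

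All 9 E2 columns contained Greb1 cells, between 3 and 9 each with a median of 4. The share of responsive cells with a read was lowest at 12%, in columns 16 and 19, had a median of 20.8%, and was highest at 37.5% and 40.9% in columns 18 and 20. Summed over the responsive cells of a column, Greb1 ranged from 15.2 to 57.0 CPM with a median of 34.3. The share also moved with depth. It was 15.1% (11 of 73 cells) in the third of cells with the fewest reads, 22.2% (16 of 72) in the middle and 27.4% (20 of 73) in the deepest, with exact 95% intervals that overlap (7.77 to 25.4%, 13.3 to 33.6% and 17.6 to 39.1%). When each cell was thinned to 20000 reads, 35 cells (16.1%) kept a Greb1 read, and the shares in these depth classes were 15.1%, 13.9% and 19.2%.

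**Figure D1:**
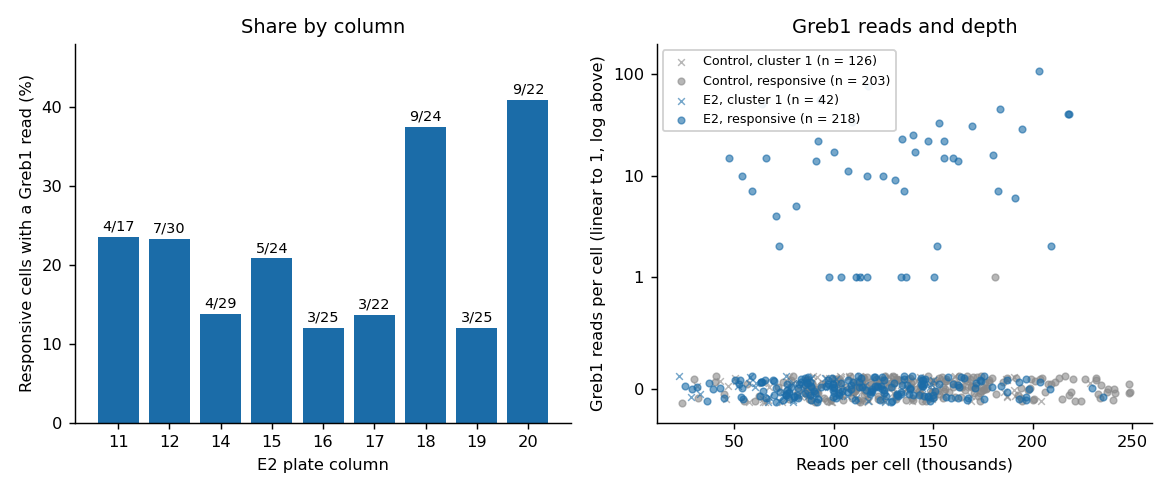
The bars give the percent of responsive E2 cells with a Greb1 read in each plate column, with positive cells over all responsive cells above each bar. The points give the Greb1 reads of each of the 589 cells (vertical axis linear to 1 and logarithmic above, points at 0 spread vertically for display) against its reads in units of 1000; nearly all cells above 0 are responsive E2 cells, with 1 control cell and 1 E2 cluster 1 cell at 1 read.

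Greb1 cells had more reads than the other E2 cells of the same column. A read of any gene is more likely to be found in a deeper cell, so the split itself draws on depth. The values with all reads are therefore given as a description, without their p-values. Mean reads per cell over columns were 129966 ± 17191 (SD, n = 9 columns) with and 115753 ± 14350 without a Greb1 read, a difference of 14213 that was positive in 8 of 9 columns. It was 7984 when Greb1 status was taken from reads thinned to 20000 per cell. With all reads the means were 4454 ± 356 and 4044 ± 340 detected genes per cell, higher in 8 of 9 columns.

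On average over columns the Greb1 cells held more detected genes at equal depth, but the difference and its p depended on how Greb1 status was set. Thinning makes reads equal, but a cell in which more genes are captured is also more likely to show a Greb1 read. The split can thus favour cells with more detected genes at any depth, whichever way Greb1 status is set. The p-values below cannot separate this from a difference tied to Greb1, and no conclusion is drawn from them. With every cell thinned to 20000 reads the means were 3059 ± 325 and 2861 ± 293 genes, a difference of 199 ± 160 that was positive in 7 of 9 columns (exact two-sided sign-flip test, p = 0.015625, adjusted p = 0.0469 over 9 measures; the smallest p that 9 columns allow is 0.00390625). The 9 measures include reads per cell and genes with all reads, which the split itself favours through depth. Their low p-values lower this adjusted p, so no call is drawn from it. The ranges of the column means overlapped (2266 to 3346 against 2275 to 3283). The difference was 224 without column 15 (exact sign-flip p = 0.015625), 216 with at least 2 Greb1 reads (exact sign-flip p = 0.0234) and 134 in pairs of cells matched for depth, whose means still differed by 4322 reads (exact sign-flip p = 0.00390625). With Greb1 status from the thinned reads it was 140 (exact sign-flip p = 0.102). In the 4 columns with at least 5 Greb1 cells it was 103, and 4 columns cannot give a p below 0.125.

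No difference in trajectory position was called between Greb1 cells and the rest. The authors built these positions on imputed values, in which similar cells share values. A cell with a Greb1 read and a similar cell without one may thus be placed close together, so this comparison can miss a difference. The pseudotime score from monocle, a method that orders cells along a branching path, was 55.9 ± 2.83 with and 55.8 ± 1.10 without a read (difference 0.0302 ± 3.30, higher in 5 of 9 columns, exact sign-flip p = 0.984). In the trajectory states, a Greb1 read was found in 11 of 42 cells of state 4 (26.2%, exact 95% interval 13.9 to 42.0%), 31 of 151 of state 5 (20.5%, 14.4 to 27.9%), 5 of 21 of state 6 (23.8%, 8.22 to 47.2%) and 0 of 4 of state 2. State 5, which held most responsive E2 cells, took 66.1 ± 19.9% of Greb1 cells and 71.0 ± 5.67% of the others (lower in 7 of 9 columns, exact sign-flip p = 0.461). That difference of -4.87 percentage points was -9.45 without column 19 (exact sign-flip p = 0.0703) and -0.601 without column 14. The shares in state 4 (23.4 against 17.8%, exact sign-flip p = 0.559) and state 6 (10.54 against 9.06%, exact sign-flip p = 0.820) likewise missed the threshold. The mitochondrial share of reads was 2.47 ± 0.232% with and 2.58 ± 0.204% without a Greb1 read (lower in 7 of 9 columns, exact sign-flip p = 0.0977, adjusted p = 0.220).

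**Figure D2:**
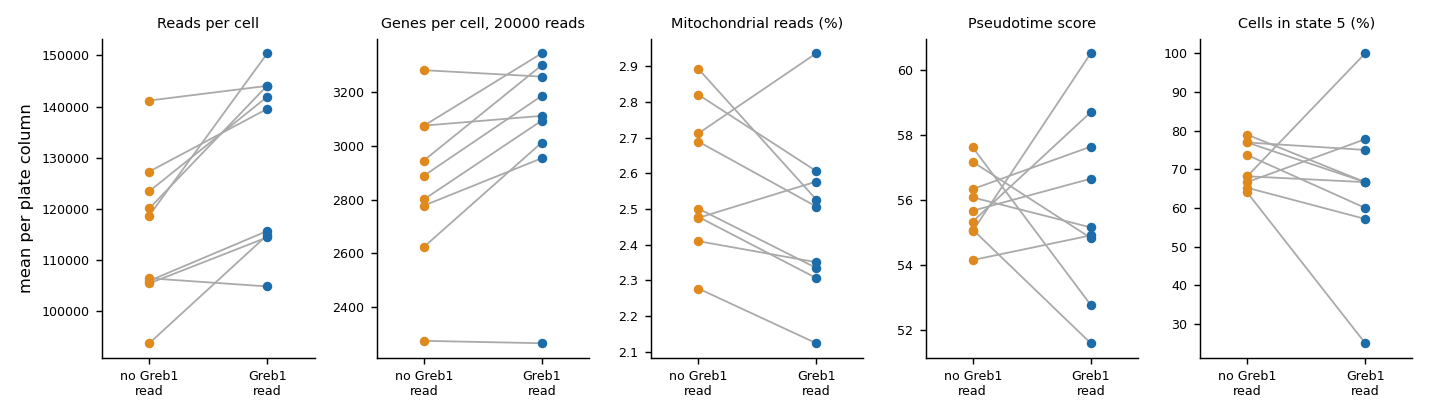
Each line joins the mean of the responsive E2 cells without (orange) and with (blue) a Greb1 read in 1 plate column, for reads per cell, genes detected per cell at 20000 reads, mitochondrial reads in percent, the pseudotime score and the percent of cells in state 5. Axes do not start at 0. Reads per cell were higher with a Greb1 read in 8 of 9 columns and genes per cell in 7 of 9, while pseudotime lines cross in both directions.

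No transcript was called different between E2 cells with and without a Greb1 read at equal depth. Each cell was thinned to 20000 reads, the cells of each group were summed per column, and 3534 genes were tested with the column as a block in edgeR's quasi-likelihood test. A gene was called where its adjusted p was below 0.05 and its log2 fold change was beyond 0.5 in either direction. By this rule 0 genes (0.0%) were called, and the lowest adjusted p was 0.995. An unadjusted p below 0.05 was found for 120 genes (3.4%). DESeq2 and limma-voom each called 0 genes too, with 227 and 186 genes at an unadjusted p below 0.05 and lowest adjusted p of 0.392 and 0.534. With all reads of each cell, 8049 genes were tested and 0 were called (427 at an unadjusted p below 0.05).

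The size of change that could have been seen was limited. In data simulated for this comparison with 200 of 3534 genes changed, 25% of 2-fold and 71.5% of 4-fold changes were called. The simulated counts had 1 mean level per gene with no differences between columns, and calls in either direction were counted. Whether these shares hold for the real columns was not tested. The 95% interval of the fold change lay within a 2-fold change in either direction for 1120 genes (31.7%) and within a 4-fold change for 3154 genes (89.2%), with a median standard error of 0.47 on the log2 scale. Without column 15, 0 genes were called as well, with 133 genes at an unadjusted p below 0.05 and a lowest adjusted p of 0.999 by edgeR. The median log2 fold change over all genes tested was -0.12, and single values and list medians below should be read against it.

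**Figure D3:**
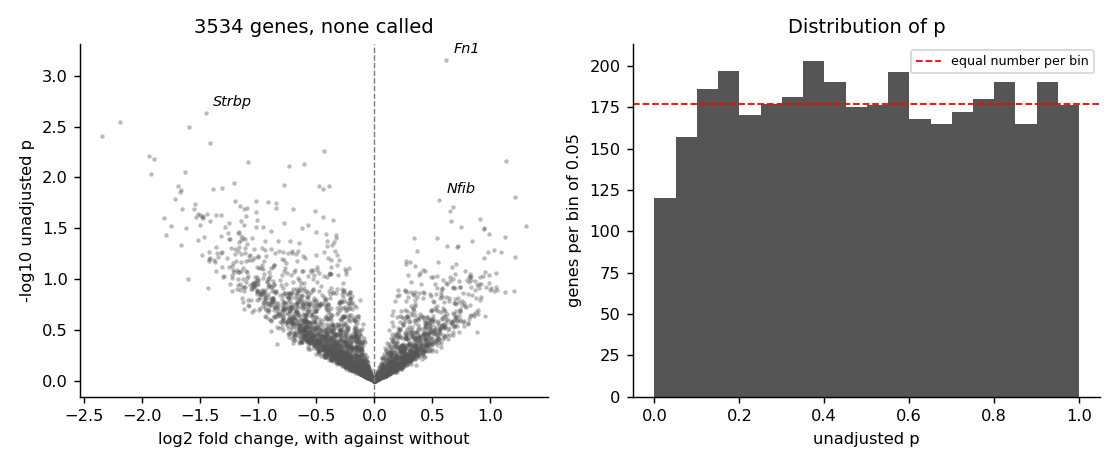
The left panel plots, for 3534 genes, the log2 fold change of E2 cells with against without a Greb1 read (20000 reads per cell, summed per column) against -log10 of the unadjusted p, with 3 genes named. The right panel gives the number of genes per bin of 0.05 of the unadjusted p, where the lowest bin holds 120 genes and the dashed line is the height of equal bins.

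The genes that mark the E2 response of OSE cells were high in both groups of E2 cells. Igfbp5, Enpp2, Ctsh, Lpl and Tacc1 are among the transcripts the study tied to E2 on these samples, so their rise against control is not independent evidence. Igfbp5, which encodes a secreted protein that binds insulin-like growth factors, had a lowest, median and highest column level of 183, 838 and 4900 CPM in Greb1 cells, 546, 1069 and 1467 in the other E2 cells, and 75, 165 and 303 in responsive control cells. These and the levels below are CPM of the thinned reads. The E2 groups overlapped over the whole range of the cells without a read, and the highest column of Greb1 cells, column 19, held 3 such cells. The log2 difference between the E2 groups was -0.09 ± 0.31 (SE; 95% interval -0.72 to 0.54). Against control, the log2 fold change of Igfbp5 was 3.06 ± 0.36 in cells with a Greb1 read (edgeR adjusted p = 3.73e-07) and 2.72 ± 0.21 in cells without (adjusted p = 4.87e-11).

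Lpl, lipoprotein lipase, had the narrowest interval of these genes. Its levels were 500, 1178 and 2060 CPM with a Greb1 read, 865, 1000 and 1334 without, and 183, 284 and 382 in control cells. Both E2 groups lay above every control column and overlapped each other, with a log2 difference of 0.20 ± 0.16 (95% interval -0.14 to 0.54), and the interval leaves out a 2-fold difference in either direction. Ctsh, which encodes the lysosomal protease cathepsin H, reached 150, 586 and 1600 CPM with and 319, 468 and 642 without a Greb1 read, against 55.0, 105 and 169 in control cells. The 2 E2 groups overlapped again, with a log2 difference of 0.14 ± 0.24 (-0.35 to 0.63).

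Enpp2 encodes autotaxin, the secreted enzyme that makes lysophosphatidic acid. It had 0, 200 and 860 CPM with and 93.3, 464 and 958 without a Greb1 read (log2 difference -0.51 ± 0.39, 95% interval -1.31 to 0.30), and 0, 18.1 and 100 in control cells. Tacc1, a gene for a centrosome-associated coiled-coil protein, had 40.0, 313 and 617 with and 232, 327 and 473 without (log2 difference -0.28 ± 0.29, -0.88 to 0.32), and 52.1, 76.5 and 128 in control cells. The E2 groups overlapped for both genes, and Tacc1 was spread more widely over the columns of Greb1 cells than over those of the other E2 cells.

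**Figure D4:**
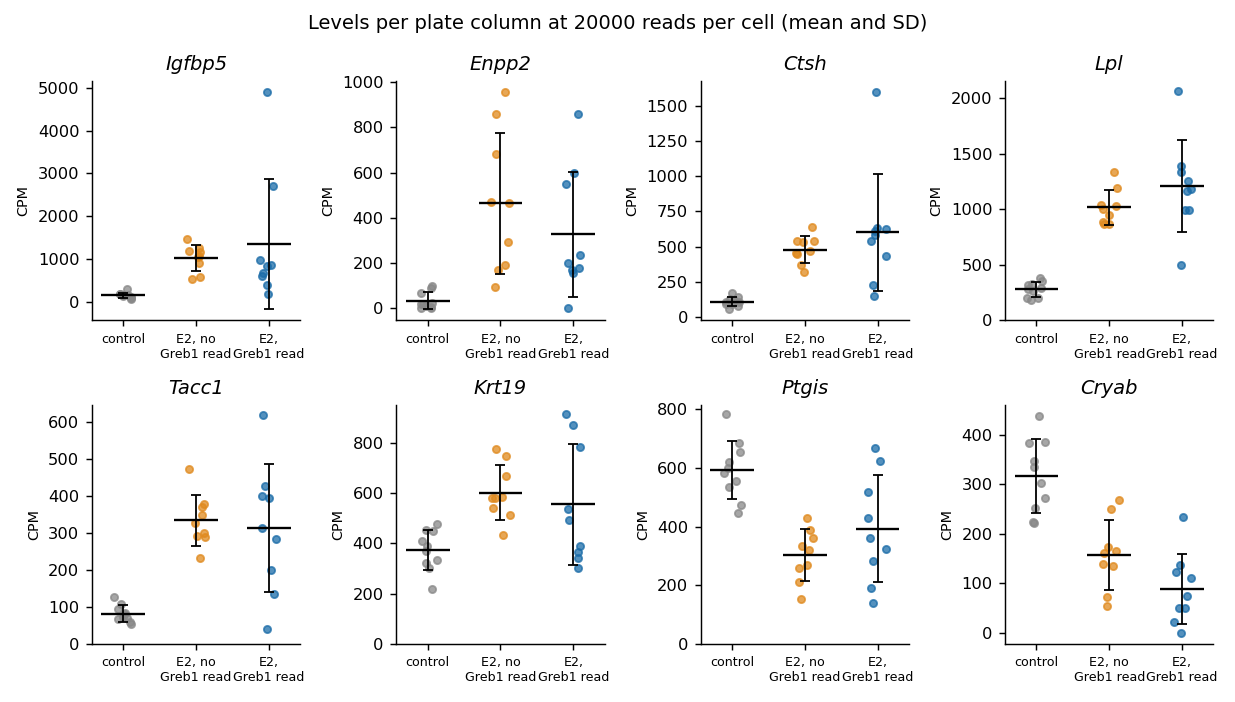
Each point is the level of a gene in 1 plate column, in CPM with every cell at 20000 reads, for responsive control cells (10 columns), E2 cells without a Greb1 read (9 columns) and E2 cells with one (9 columns); horizontal bars are means and whiskers the SD. Igfbp5, Ctsh, Lpl and Tacc1 are higher in both E2 groups than in control on average, Ptgis and Cryab are lower, and the E2 groups overlap for all 8 genes.

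Against responsive control cells, E2 cells without a Greb1 read differed in 113 of 5832 genes tested (1.94%), of which 69 (1.18%) were higher and 44 (0.754%) lower. E2 cells with a Greb1 read differed in 45 of 4731 genes (0.951%), of which 30 (0.634%) were higher and 15 (0.317%) lower. The counts rest on 171 and 47 cells and on the same control columns, so they do not compare the 2 groups of E2 cells. DESeq2 gave 177 and 137 calls. The balance of directions in Greb1 cells turned with the fit, since limma-voom called 26 genes higher and 50 lower and edgeR without a gene filter 58 higher and 97 lower. A plate column holds 1 condition, so inlet, suspension and E2 cannot be told apart in these fits. A list of 14 genes that the study named for the E2 branch or as raised in E2-treated cells comes from these same cells, so its calls are not independent evidence. Of these 14 genes, 9 were called higher without and 5 with a Greb1 read, and none lower. Those in Greb1 cells included Ctsh (2.46 ± 0.29 on the log2 scale, edgeR adjusted p = 3.07e-07), Lpl (2.14 ± 0.21, adjusted p = 3.41e-09), Enpp2 (3.30 ± 0.56, adjusted p = 0.000174) and Tacc1 (1.93 ± 0.31, adjusted p = 8.82e-05), with 2.19, 1.91, 3.81 and 2.08 in cells without a read.

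Among genes lower with E2, Cryab and Ptgis were named by the study, on these same cells, as raised in control cells. Cryab encodes the small heat shock protein αB-crystallin, and its levels were 0, 75 and 233 CPM with a Greb1 read, 53.9, 161 and 268 without, and 222, 319 and 439 in control cells. Against control it fell by 1.82 on the log2 scale in Greb1 cells (edgeR adjusted p = 0.000636) and by 0.963 in the other E2 cells (adjusted p = 0.0118). The difference between the E2 groups was -0.96 ± 0.47 (unadjusted p = 0.0492, adjusted p = 0.995 by edgeR), lower in 7 of 9 columns and not called. Ptgis, prostacyclin synthase, had 139, 363 and 667 CPM with and 153, 320 and 430 without a Greb1 read, against 445, 591 and 783 in control cells. It was called lower than control without a Greb1 read (-0.92 ± 0.17, edgeR adjusted p = 0.000796), its value with a read was -0.61 ± 0.23 (adjusted p = 0.245), and the E2 groups differed by 0.28 ± 0.22 (95% interval -0.16 to 0.72).

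Krt19, an epithelial keratin, and Fgf9, a fibroblast growth factor, were called higher than control in cells without a Greb1 read (log2 fold changes 0.73 and 1.61) and had 0.61 and 1.46 in cells with one. Their differences between the E2 groups were -0.19 ± 0.21 and -0.47 ± 0.43 and were not called. Map2k1, the kinase MEK1, was called at 1.14 without a read and had 0.46 with one, and the difference of -0.82 ± 0.41 between the E2 groups missed the call (edgeR unadjusted p = 0.0533). Kitl, the KIT ligand, had a difference of 0.45 ± 0.37. Wnt5a, Hif1a, Gja1, Ccl2 and Icam1 were called in none of the 3 comparisons.

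**Figure D5:**
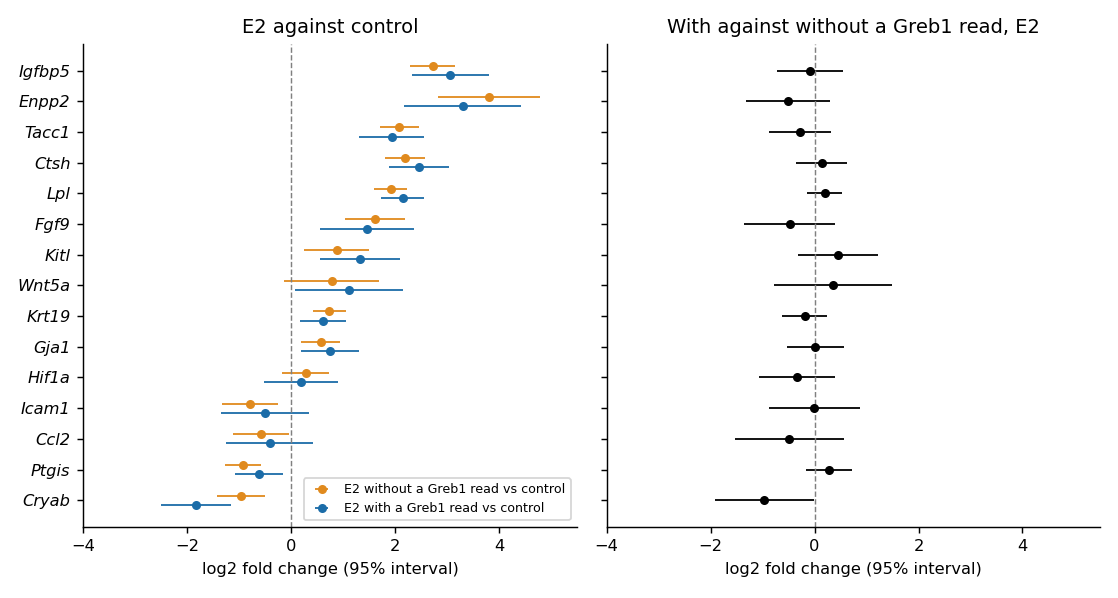
Points are log2 fold changes from edgeR and bars their 95% intervals for 15 genes. The left panel shows E2 cells without (orange) and with (blue) a Greb1 read against the same responsive control cells, and the right panel shows E2 cells with against without a Greb1 read. In the right panel the intervals cross 0 for every gene drawn except Cryab, whose interval ends at -0.00366.

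The receptor and its partners were sparse. Esr1, the gene for estrogen receptor alpha, did not pass the filter on low counts. At 20000 reads per cell an Esr1 read was found in 12 of 47 Greb1 cells (25.5%, exact 95% interval 13.9 to 40.3%) and 29 of 171 others (17%, 11.7 to 23.4%), and averaged over columns the shares were 27.6 and 17.2% (higher in 5 of 9 columns, exact sign-flip p = 0.434). Without column 16, where all 3 Greb1 cells had an Esr1 read, the difference fell from 10.4 to 0.859 percentage points. Among responsive control cells 18.2% had one. Greb1l, the paralog of Greb1, also failed the filter. A Greb1l read was found at 20000 reads in 4 of 47 Greb1 cells and 4 of 171 others. With all reads, where Greb1 cells were deeper on average, 9 of 47 (19.1%) and 9 of 171 (5.26%) had one. The reads of Greb1 and Greb1l were divided by transcript estimation, and sharing between the paralogs was not tested. Of 25 genes for estrogen receptors and coregulators, 10 were tested and 0 called, with a median log2 fold change of -0.02. Ddx5, an RNA helicase that acts as a coactivator, had 0.16 ± 0.16, and Ep300, a histone acetyltransferase, had 0.57 ± 0.58.

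No other known estrogen target was called. Of 42 estradiol-induced genes drawn from general knowledge, 31 were in the table, 14 were tested and 0 were called, with 5 higher, 9 lower and a median of -0.18 beside -0.12 for all genes. Igfbp4, an estrogen-induced binding protein for insulin-like growth factors, had 1383, 2067 and 3633 CPM with and 1460, 1939 and 2308 without a Greb1 read. These ranges overlapped, and the log2 difference was 0.20 ± 0.13. Xbp1, a transcription factor of the unfolded protein response, had -0.67 ± 0.44. The median was -0.18 over the 13 tested of 14 genes the study named for E2, and -0.25 over the 6 tested of 7 genes it named for control cells. The OSE identity list had 11 of 14 genes tested and a median of -0.12.

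Lists for other programs gave 0 called genes as well. The median log2 fold change was -0.34 for 13 immediate early and heat shock genes tested of 24 (Junb -1.10 ± 0.44, Ier3 -0.41 ± 0.19), -0.23 for 8 hypoxia genes of 22, -0.04 for 8 p53 targets of 20, -0.15 for 6 genes of the insulin-like growth factor system of 16, and -0.09 for 12 of 15 mitochondrially encoded genes. Only 2 of 28 cell cycle genes, Pcna and Rrm1, passed the filter (-0.30 ± 0.54 and -0.14 ± 0.42). The list of cadherins and epithelial to mesenchymal transition genes had 7 of 20 tested and a median of 0.27, and it holds Fn1. Igf2, an insulin-like growth factor, had 0, 117 and 267 CPM with and 78.3, 235 and 332 without a Greb1 read. Its groups overlapped and its log2 difference of -1.21 ± 0.45 was not called (edgeR adjusted p = 0.995).

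Markers of granulosa, theca, leukocyte and smooth muscle cells were low in both groups. The summed level of cluster 1 markers was 1947 CPM in Greb1 cells and 2168 in the others, with column ranges of 1264 to 3320 and 1292 to 4684. Granulosa markers summed to 12.8 and 19, theca and steroidogenic markers to 31.9 and 55.8, leukocyte markers to 57.4 and 61.7, and smooth muscle and pericyte markers to 1.06 and 10.2 CPM. Endothelial markers summed to 503 and 506, most of it Pecam1 (log2 difference -0.02 ± 0.18).

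Fn1, which encodes the extracellular matrix protein fibronectin and is named here after its values were seen, had the lowest p of all genes. Its levels were 894, 1550 and 3800 CPM in Greb1 cells, 770, 987 and 1208 in the other E2 cells, with a control median of 1005. Most columns of Greb1 cells lay above the range of the others, though the groups overlapped. The log2 difference was 0.62 ± 0.16 (95% interval 0.29 to 0.95), positive in 7 of 9 columns, with an unadjusted p of 0.0007 and an adjusted p of 0.995 by edgeR. Over the alternatives the difference stayed between 0.36 and 0.73 and the adjusted p between 0.392 and 1.00.

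The genes of lowest p with the same sign in at least 8 of 9 columns also missed the call. Those higher in Greb1 cells were led by Nfib, a nuclear factor I transcription factor, with 238, 417 and 867 CPM against 162, 287 and 512, higher in 8 of 9 columns (log2 difference 0.56 ± 0.22, unadjusted edgeR p = 0.0168, adjusted p = 0.995). Tgm2, a transglutaminase that crosslinks matrix proteins, followed with 0.65 ± 0.27, and Ccnd2, the gene for cyclin D2, had 0.30 ± 0.16. The other genes of this kind were Commd1, Myo1c, Cuedc2, Cnn3, Hcfc1, Tbrg1, Phlda1, Pet100 and Adipor2, with log2 differences from 0.37 to 1.21. Pet100 was the only gene higher in 9 of 9 columns (0.65 ± 0.38).

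Lower in Greb1 cells were Strbp, a gene for a double-stranded RNA-binding protein, with 12.5, 50 and 106 CPM against 69.2, 144 and 274 in the other E2 cells, lower in 9 of 9 columns (log2 difference -1.45 ± 0.43, unadjusted edgeR p = 0.00235, adjusted p = 0.995). Rps15a, a ribosomal protein gene, had -0.43 ± 0.14, Eif3e, a subunit of translation initiation factor 3, had -0.78 ± 0.29, and Rela, the p65 subunit of NF-κB, had -1.92 ± 0.68. The others were ENSMUSG00000100725, Plekha3, Pdlim4, Dcaf8, Atg101, Rad50, Gm2a and Ahsa1, with values from -2.35 to -0.61. In all, 19 genes (0.538%) were lower and 1 (0.0283%) was higher in 9 of 9 columns. Greb1 sums held fewer cells than the other sums in every column. The median log2 fold change was -0.12 here, over 3534 genes. In depth-matched groups of 47 cells each it was 0.02, but over only 1382 genes, so the 2 medians cover different sets of genes. The imbalance of directions was not tested. The groups did not overlap for 1 gene (0.0283%), Ctdspl2, with 0, 25.0 and 33.3 CPM against 47.8, 58.0 and 108, which is named after its values were seen (-1.36 ± 0.57, edgeR unadjusted p = 0.0232, adjusted p = 0.995). Plekha3, Pdlim4, Dcaf8, Atg101, Rad50, Rela, Ahsa1 and Ctdspl2 were at 0 in at least 1 column of Greb1 cells, so their low levels rest on few reads.

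Fcgrt, the neonatal Fc receptor gene, was also picked after its values were seen. At 20000 reads per cell it had 0 reads in 47 Greb1 cells (up to 6.38% of cells with a read at that depth), and a read in 42 of 171 other E2 cells (24.6%) and 58 of 203 responsive control cells (28.6%). With all reads it was present in 8 of 47 Greb1 cells (17%) and 55 of 171 others (32.2%), with 32 and 966 reads. It did not pass the filter on low counts and has no value in the comparison above. When no filter was applied, 5 of 13801 genes were called by edgeR, all lower in Greb1 cells: Fcgrt, Gm2a, Adgrf4, Trf and Npm1. The median log2 fold change over all genes was -0.54 in that fit.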

How the data were processed

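Libraries of the 3′ ends of cDNA of single OSE cells were quantified by the authors with kallisto (version 0.44.0 per the submitters' processing notes, which name GRCm38) and summed to genes with tximport; the deposited values are estimated counts per gene and cell after their filters on cells and genes. The deposited metadata give the percent of mitochondrial reads, a pseudotime score, trajectory states and SC3 labels. A deposited imputed table was not used for expression levels, since imputation shares values between similar cells. The authors did build the SC3 labels, the pseudotime score and the trajectory states on imputed values. The choice of responsive cells and the comparisons of trajectory position therefore rest on imputation. Doublets were handled by the authors, who inspected capture sites by eye, and no caller was run here. The table had 14299 genes, 14135 with a symbol. E2 columns held 2693258 to 4037847 reads.

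Estimated counts were rounded, each cell was thinned without replacement to 20000 reads, and cells were summed per plate column and group (at least 3 cells). edgeR 4.0.16 (TMM, filterByExpr, quasi-likelihood, R 4.3.3) was fitted with the plate column as a block for the comparison within E2 cells, where both groups come from the same library, and without it against control. P-values were adjusted by Benjamini-Hochberg over all genes. Calls needed an adjusted p below 0.05 with a log2 fold change beyond 0.5 in size. Means per column were compared by exact two-sided sign flips. Tests were run on simulated data first. Alternatives were DESeq2 1.42.0, limma-voom 3.58.1, other depths, draws and filters, other definitions of Greb1 status, covariates, no block, state 5 cells alone and each column left out, and, added after seeing the data, depth-matched cells and a mean of log values per cell. Named genes were fixed names, list members of lowest p (up to 3 a list) and, as no gene was called, up to 12 genes per direction of lowest p with the same sign in all but at most 1 column; others are marked in the text. The members and lists were chosen with earlier results of these data known.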

Additional observations from a re-analysis of the deposited data

Results flagged for a closer look

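In 70 groups of 9 or 10 columns, the highest or lowest column was compared with its neighbor against Dixon's 95% critical value, and 14 groups passed it. That value holds for normally distributed values, while some groups are skewed with many zeros, so 14 was not set against a rate expected by chance. Among Greb1 cells, column 15 stood low in genes detected per cell, at 3620 with all reads (nearest column 4270) and 2270 at 20000 reads (nearest 2950). The cells without a Greb1 read were lowest in the same column, at 3482 and 2275 genes. The share of Greb1 cells with an Esr1 read reached 100% in column 16, with the nearest at 50%.

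Single high columns of Greb1 cells, in CPM, were seen for Ctsh (1600, nearest 633), Kitl (540, nearest 250), Hif1a (510, nearest 225), Gja1 (1210, nearest 438) and Ccl2 (2010, nearest 907). Those for Kitl, Hif1a and Gja1 were column 15, which was also highest for these 3 genes among E2 cells without a Greb1 read. Among E2 cells without a Greb1 read, 1 column was high for Kitl (418, nearest 157), Wnt5a (134, nearest 73.1) and Greb1l (23.1, nearest 9.09). Among responsive control cells, 1 column was high for Igfbp5 (303, nearest 195), Fgf9 (108, nearest 64.0) and Greb1l (41.7, nearest 8.0).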

How the results depend on the processing

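Between E2 cells with and without a Greb1 read, 0 genes were called under 25 of 26 alternatives, including each of 9 columns left out (range 0 to 0) and no replicate block (0 called, 128 genes at an unadjusted p below 0.05), all reads, 50000 reads, state 5 cells (26 against 74 cells) and depth-matched cells (47 against 47). The fit of state 5 cells tested only 2837 genes in 6 columns and that of depth-matched cells 1382 genes, against 3534 genes in 9 columns in the main fit. Without a filter on low counts 5 genes were called, all lower in Greb1 cells (Fcgrt, Gm2a, Adgrf4, Trf and Npm1, named after their values were seen), in a fit of 13801 genes whose median log2 fold change was -0.54. The median over all genes also moved with the setting, from -0.12 to 0.00 without the block, 0.02 in depth-matched cells and -0.36 with all reads. The last 2 of these fits tested other sets of genes, 1382 and 8049 against 3534.

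Against control, DESeq2 called 177 genes without a read (792 genes had no adjusted p) and 137 with a Greb1 read, limma-voom 76 with a read (26 higher, 50 lower), and the fit with no gene filter 155 with a read (58 higher, 97 lower), against 30 higher and 15 lower in the report. No paired analysis was possible for these because a plate column holds 1 condition.

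In the 4 columns with sums of 5 or more cells, where no p can fall below 0.125, the differences were 11333 reads, 234 genes with all reads, 103 genes at 20000 reads, -0.382 in pseudotime, -0.907 percentage points in state 6 and -0.102 in the Esr1 share. With Greb1 status from thinned reads they were 7984 reads, 259 and 140 genes, -0.183 in pseudotime and -1.32 points in state 6. With at least 2 Greb1 reads they were -0.168 points in mitochondrial share (exact sign-flip p = 0.0391) and -0.0660 in pseudotime, and in depth-matched cells 0.0203, -0.365 and, for state 6, -4.28 points. With 1 column left out, they ranged from -0.152 to -0.0777 for mitochondrial share (-0.152 without column 17, exact sign-flip p = 0.0234), -0.652 to 0.642 for pseudotime, -0.0707 (without column 14) to 9.71 for state 4, -9.45 (without column 19) to -0.601 (without column 14) for state 5, -1.47 to 4.16 for state 6 and 0.859 (without column 16) to 14.2 for the Esr1 share. The share of cells with a Greb1 read was 16.1% at 20000 reads. The cause of these shifts was not tested. Columns with 3 or 4 Greb1 cells limit the precision of every value for that group.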
